A study of Mus musculus with 16 samples.

Results

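Histone genes were followed here through the new RNA, the liver RNA and the binding sites of a study of KLF1 and its Nan mutant. They were taken as every gene whose symbol begins with Hist1, Hist2, Hist3, Hist4, H1f, H2af or H3f. Of 1556 genes listed in the table of newly made RNA, 43 met this rule, and of 793 genes listed in the fetal liver table, 1 did. Among the 43 there were 38 replication-dependent genes (symbols in Hist) and 5 variant genes. RefSeq has 85 protein-coding mouse genes with a symbol or synonym under the same rule, and 43 of them had a row. Every listed 4sU gene had passed the authors' test in at least 1 comparison, so the rows are not all histone genes measured and an unlisted gene is not shown to be unchanged.

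The series has 16 samples. New RNA was labelled with 500 uM 4-thiouridine (4sU) for 1 h in K1, an erythroblast cell line that lacks KLF1, and in K1 cells carrying an oestrogen receptor (ER) fusion that 4-hydroxytamoxifen switches on. K1-NanER cells carry Nan-KLF1-ER, the form with the mutant zinc fingers (2 libraries, from different clones). K1-ER cells carry KLF1-ER (2 libraries, from different clones). Parental K1 cells carry neither fusion (2 libraries). All 3 lines were given 200 nM 4-hydroxytamoxifen per the labels, although the table names the drug only for the fusion lines. Binding was measured by ChIP-seq with a KLF1 antibody after 3 h of the drug, with 1 ChIP library of 3 pooled replicates for Nan-KLF1 in K1-NanER cells, 1 for KLF1 in K1-ER cells, and an input for each. Polyadenylated RNA came from whole fetal livers at embryonic day 14.5, 3 Nan/+ and 3 Klf1+/+, after removal of globin RNA.

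Histones are the proteins around which DNA is wound. H2A, H2B, H3 and H4 form the core of the nucleosome, and H1 binds the linker DNA between cores. Replication-dependent histone genes lie in clusters, lack introns and are transcribed in S phase, and their messenger RNA ends in a stem-loop in place of a poly(A) tail. Variant genes are transcribed outside S phase as well and mostly give polyadenylated RNA. Red cell precursors condense their chromatin as they mature and leave the cell cycle before they lose the nucleus.

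Each level is an FPKM of the authors (fragments per kilobase of gene model, scaled to library size), with 1 value per group. Replicate spread and depth are therefore unknown, and the only tests are the authors' comparisons with K1, called here at q of at most 0.05. Esr1, the gene of the receptor used in the fusions, was at 70.3 FPKM in K1-NanER, 136 in K1-ER and 2.41 in K1. Whether the fusion proteins were at like levels was not tested. The erythroid genes Epor (139 FPKM in K1-NanER, 485 in K1-ER, 129 in K1) and Hbb-bh1 (418, 4174 and 123 FPKM in the same order), chosen after their values were seen, were present in every line. The RNA of Klf1 was not analysed here. The labels do not say that the K1 libraries or the livers came from separate cultures or litters. Clones were compared with parental cells, so clonal differences enter every value, and the same K1 libraries serve both comparisons.

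Replication-dependent histone genes had less new RNA in cells with either active fusion than in parental cells. Their summed level was 6291 FPKM in K1-NanER, 6483 in K1-ER and 17265 in K1, which is 36.4% and 37.5% of the K1 sum in K1-NanER and K1-ER. Per the authors' deposited table, 27 of the 38 genes fell in K1-NanER, 2 rose and 9 did not pass, against a background of 28.3% of all rows falling. In K1-ER 29 of the 38 fell, none rose and 9 did not pass, against a background of 11.5% of all rows falling per the authors' deposited table. Over the 38 genes, log2 fold changes had a median of -1.82 in K1-NanER and -1.35 in K1-ER, against 1.04 and 0.72 over all rows of the authors' deposited table. With the variant genes added, histones made up 30 of 441 falls (6.80%) in K1-NanER and 29 of 179 falls (16.2%) in K1-ER. Members of a core type have near-identical coding sequences, and how reads matching several copies were assigned is not given in the sources used here. Single genes are therefore uncertain. Sums over a type cover only the listed genes, so they too may depend on that assignment. In K1-NanER the sums also differed by gene model within H2A and H3, as given below.

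**Figure D1:**
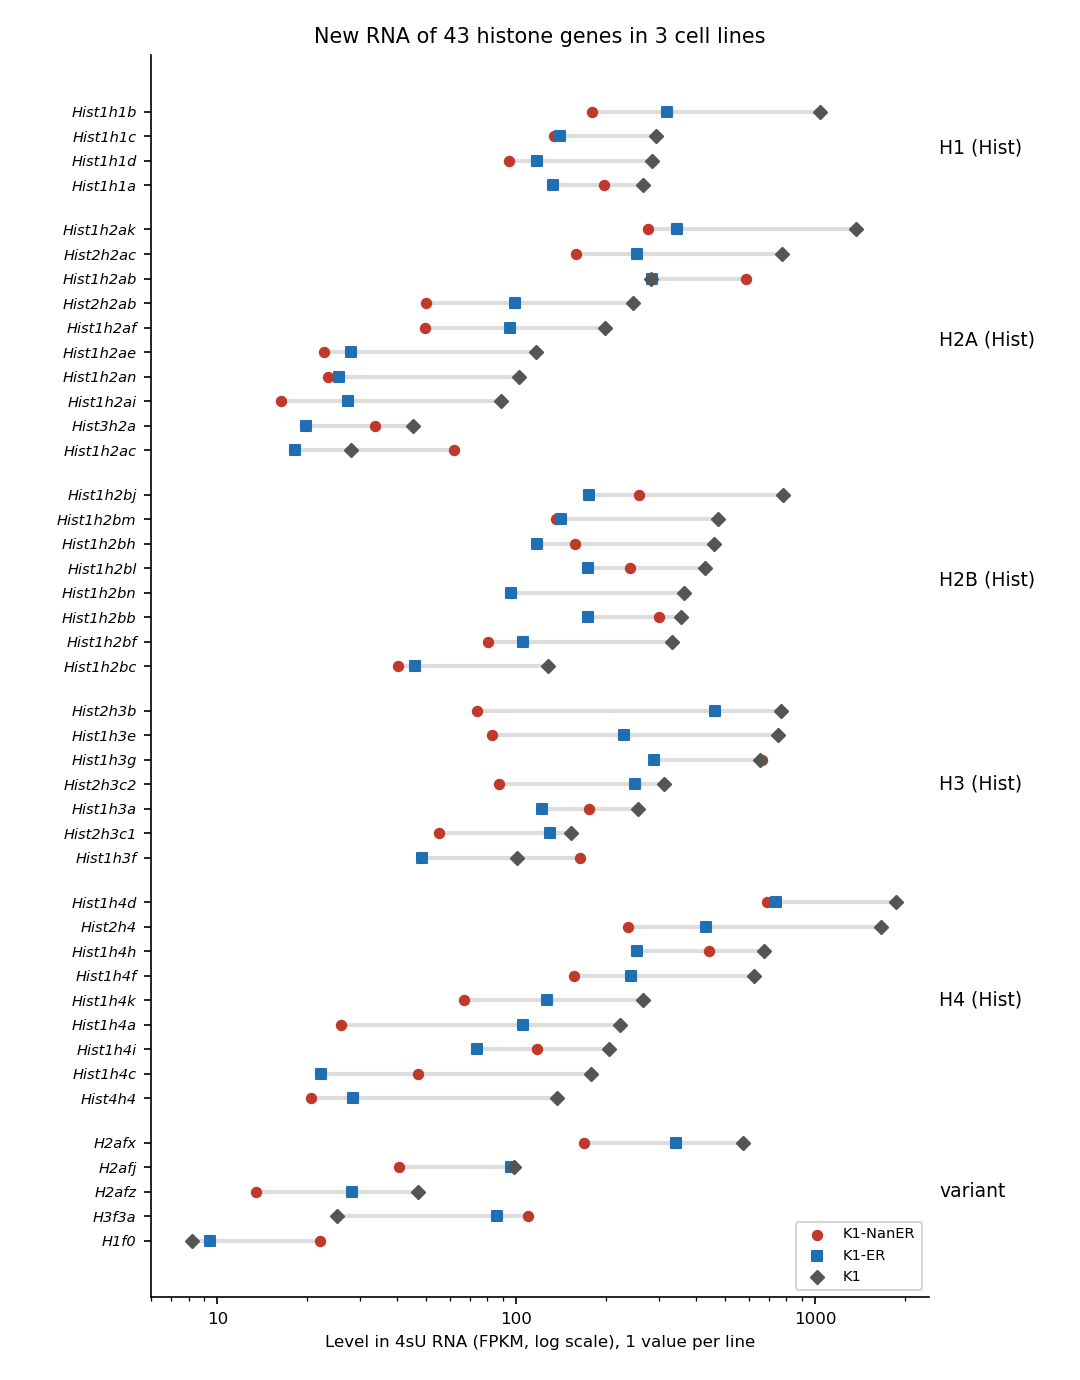
Level in 4sU RNA (FPKM, log axis) of each of the 43 histone genes in K1-NanER (circles), K1-ER (squares) and K1 (diamonds), grouped by histone type and ordered by the K1 level, with 1 authors' value per line. For most replication-dependent genes the K1 value lies to the right of both others, and for H3f3a and H1f0 it lies to the left.

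The 4 replication-dependent linker histone (H1) genes were all lower in K1-ER than in K1. The highest of them in K1-ER and K1 was Hist1h1b (chromosome 13, 21871752 to 21872423 in mm9, the build of all gene positions given). It was at 179 FPKM in K1-NanER, 319 in K1-ER and 1037 in K1. Its log2 fold changes were -2.54 in K1-NanER and -1.70 in K1-ER, each with a q of 0.00213, the smallest listed by the authors' deposited table. Hist1h1c stood at 134, 140 and 293 FPKM and Hist1h1d at 94.5, 118 and 285 FPKM in K1-NanER, K1-ER and K1. Both fell in K1-NanER (q of 0.0205 and 0.00381) and in K1-ER (q of 0.0392 and 0.0196) per the authors' deposited table. Hist1h1a was at 197 FPKM in K1-NanER, 132 in K1-ER and 266 in K1, and passed only in K1-ER (q of 0.535 in K1-NanER and 0.0386 in K1-ER per the authors' deposited table). Summed over the 4 genes, H1 was at 604 FPKM in K1-NanER, 708 in K1-ER and 1881 in K1.

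H2A was the only replication-dependent type with genes that rose in K1-NanER, with 7 of 10 falling and 2 rising, while in K1-ER 6 of 10 fell and none rose. The type split by gene model in K1-NanER: the 6 H2A genes listed at coding length all fell and summed to 20.6% of their K1 level, while of the other 4, 1 fell and 2 rose, and they summed to 149% of K1. Their median log2 fold changes were -2.29 and 0.32 per the authors' deposited table. Hist1h2ak (chromosome 13, 21845304 to 21845696) was the highest of them in K1, at 275 FPKM in K1-NanER, 345 in K1-ER and 1372 in K1. Hist2h2ac followed with 158 FPKM in K1-NanER, 252 in K1-ER and 772 in K1. The log2 fold changes of this pair were -2.32 and -2.29 in K1-NanER, and -1.99 and -1.61 in K1-ER per the authors' deposited table. Hist1h2ab and Hist1h2ac went the other way in K1-NanER. Hist1h2ab (chromosome 13, 23842957 to 23843462) was at 586 FPKM in K1-NanER, 284 in K1-ER and 283 in K1. Its log2 fold change was 1.05 in K1-NanER (q = 0.0294) and 0.01 in K1-ER (q = 0.994) per the authors' deposited table. Hist1h2ac stood at 61.8 FPKM in K1-NanER, 18.2 in K1-ER and 28.04 in K1, with q of 0.0213 in K1-NanER and 0.326 in K1-ER per the authors' deposited table.

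The other 6 H2A genes were lower in each fusion line than in K1. Hist2h2ab (49.8, 98.7 and 245 FPKM in K1-NanER, K1-ER and K1), Hist1h2ae (22.7, 27.9 and 116 FPKM) and Hist1h2an (23.4, 25.5 and 102 FPKM) passed in each comparison. Hist1h2af (49.5, 95.5 and 198 FPKM) and Hist1h2ai (16.3, 27.4 and 89.0 FPKM) passed in K1-NanER, with q of 0.113 and 0.0652 in K1-ER per the authors' deposited table. Hist3h2a, the only row of the small Hist3 group (chromosome 11, 58768187 to 58770176), was at 33.7 FPKM in K1-NanER, 19.7 in K1-ER and 45.1 in K1, and passed in K1-ER (q = 0.0127) but not in K1-NanER (q = 0.548) per the authors' deposited table.

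All 8 H2B genes fell in K1-ER and 6 of the 8 fell in K1-NanER. H2B was also the type with the lowest share of its K1 level in K1-ER, 1027 FPKM or 31.0% of the 3316 FPKM in K1, against 1307 FPKM or 39.4% in K1-NanER. Hist1h2bj (chromosome 13, 22135099 to 22135479) was at 257 FPKM in K1-NanER, 175 in K1-ER and 780 in K1. Its log2 fold change was -1.60 in K1-NanER and -2.16 in K1-ER, each with q of 0.00213 per the authors' deposited table. Hist1h2bn was level in both fusion lines, with 95.95 FPKM in K1-NanER, 95.94 in K1-ER and 364 in K1. Hist1h2bm (136, 141 and 473 FPKM), Hist1h2bh (158, 118 and 458 FPKM), Hist1h2bf (80.4, 106 and 332 FPKM) and Hist1h2bc (40.3, 45.8 and 128 FPKM) likewise passed in each comparison, in the order K1-NanER, K1-ER and K1. The 2 that did not pass in K1-NanER were Hist1h2bb, at 299.98 FPKM in K1-NanER, 173 in K1-ER and 355 in K1 (q of 0.773 in K1-NanER and 0.0344 in K1-ER), and Hist1h2bl, at 240.5, 174 and 426 FPKM (q of 0.139 and 0.0137) per the authors' deposited table.

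H3 genes included the steepest histone falls in K1-NanER, yet 3 of the 7 did not pass there and 3 did not pass in K1-ER. Hist2h3b (chromosome 3, 96072617 to 96073027) was at 73.7 FPKM in K1-NanER, 462 in K1-ER and 767 in K1. Its log2 fold change was -3.38 in K1-NanER (q = 0.00213) and -0.73 in K1-ER (q = 0.233) per the authors' deposited table. Hist1h3e (chromosome 13, 23653824 to 23654234) was at 82.8 FPKM in K1-NanER, 229 in K1-ER and 753 in K1, and fell in each comparison by log2 fold changes of -3.18 and -1.71 per the authors' deposited table. Hist2h3c1 and Hist2h3c2 passed in K1-NanER and not in K1-ER, and are described with their binding sites.

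Hist1h3g, Hist1h3f and Hist1h3a had the opposite order of the fusion lines. Hist1h3g (chromosome 13, 23627287 to 23627778) stood at 666 FPKM in K1-NanER, 289 in K1-ER and 654 in K1. Hist1h3f stood at 163 FPKM in K1-NanER, 48.5 in K1-ER and 100.2 in K1. For Hist1h3a the levels were 175 FPKM in K1-NanER, 121 in K1-ER and 255 in K1. These 3 fell in K1-ER, with q of 0.00931, 0.0379 and 0.0435, and did not pass in K1-NanER, with q of 0.982, 0.215 and 0.389 per the authors' deposited table. The H3 sum was 1303 FPKM in K1-NanER, 1530 in K1-ER and 2994 in K1, and at 43.5% and 51.1% of K1 it kept the largest share of the 5 types in each line. Within H3 the share in K1-NanER was uneven: the 2 genes listed at coding length summed to 10.3% of K1 and the 5 others to 77.8%.

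H4 had the highest sum in K1 and 7 of its 9 genes fell in each comparison. The sum was 1800 FPKM in K1-NanER, 2023 in K1-ER and 5825 in K1. Hist1h4d (chromosome 13, 23673471 to 23673782), the highest histone gene in each line, was at 690.3 FPKM in K1-NanER, 739.97 in K1-ER and 1868.5 in K1. Hist2h4 was at 236 FPKM in K1-NanER, 431 in K1-ER and 1656 in K1. Log2 fold changes of these 2 genes were -1.44 and -2.81 in K1-NanER and -1.34 and -1.94 in K1-ER, all with q of 0.00213 per the authors' deposited table. Hist4h4 (chromosome 6, 136750074 to 136752952), the only row of its group, stood at 20.5 FPKM in K1-NanER, 28.4 in K1-ER and 136 in K1. Hist1h4c had the steepest histone fall in K1-ER, at 46.8 FPKM in K1-NanER, 22.2 in K1-ER and 177 in K1 (log2 fold change -3.00 in K1-ER, q = 0.0271 per the authors' deposited table).

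Hist1h4f also passed in each comparison, at 156 FPKM in K1-NanER, 242 in K1-ER and 625 in K1. Hist1h4h and Hist1h4i passed only in K1-ER. Hist1h4h was at 441 FPKM in K1-NanER, 254 in K1-ER and 672 in K1, and Hist1h4i at 117, 74.0 and 204 FPKM, with q of 0.287 and 0.161 in K1-NanER per the authors' deposited table. Hist1h4a and Hist1h4k passed only in K1-NanER and carried peaks of each factor, which are described with the binding data.

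**Figure D2:**
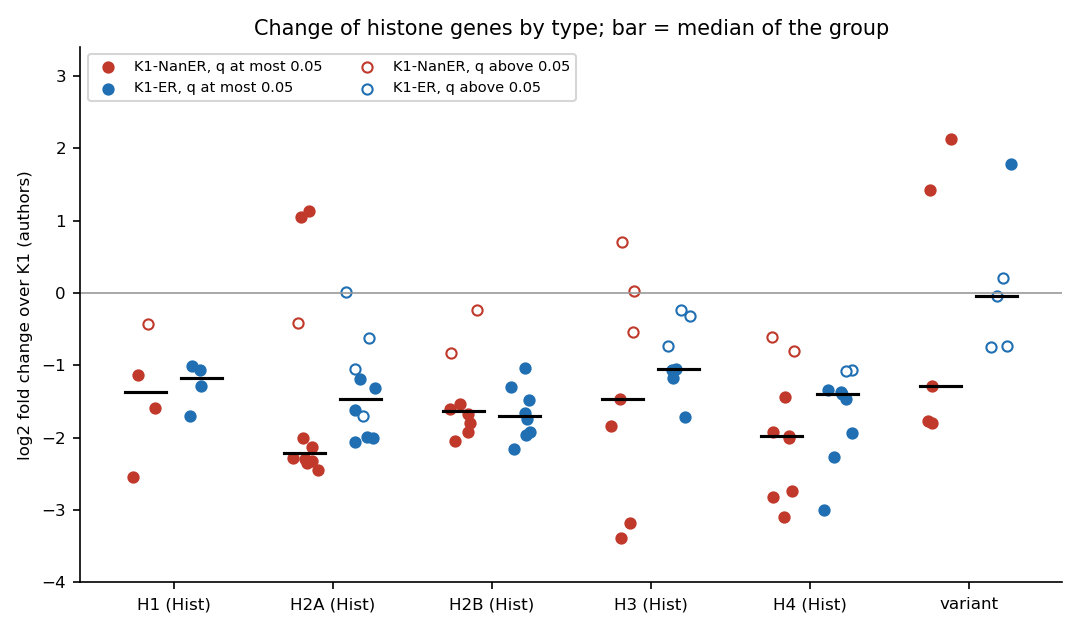
Log2 fold change over K1 in the authors' comparisons, for K1-NanER (left of each pair) and K1-ER (right), by histone type, with 1 point per gene, filled where q is at most 0.05, and a bar at the median. The medians of the 5 replication-dependent types lie between -2.21 and -1.36 in K1-NanER and between -1.70 and -1.05 in K1-ER.

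The fusion lines stood in a different order in the Hist2 and Hist1 sums. The 6 Hist2 genes (chromosome 3, 96023839 to 96073027) all fell in K1-NanER, and 3 of the 6 fell in K1-ER per the authors' deposited table. Their sum was 660.1 FPKM in K1-NanER, 1624 in K1-ER and 3905 in K1, and each of the 6 was lower in K1-NanER than in K1-ER. Among the 30 Hist1 genes (chromosome 13, 21807632 to 23856283), 20 fell and 2 rose in K1-NanER while 24 fell in K1-ER. The Hist1 sum was 5576 FPKM in K1-NanER, 4811 in K1-ER and 13178 in K1. By gene, however, 16 of the 30 Hist1 genes were lower in K1-NanER than in K1-ER. The median log2 ratio of K1-NanER over K1-ER was -0.06 over these 30. Across all 38 genes the median log2 ratio of K1-NanER over K1-ER was -0.15, with a range of -2.65 (Hist2h3b) to 1.76 (Hist1h2ac). Of the 38, 23 (60.5%) were lower in K1-NanER, against 55.5% of the rows other than histones. That share was 83.1% for the 118 other genes with loci of at most 3000 bp and 53.2% for the 1395 longer ones. No test compared K1-NanER directly with K1-ER, so a call in a single line says nothing of a difference between the lines.

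The length of the gene model moved with the K1-NanER values. Of the 34 core histone genes, 19 had a listed locus at the commonest length of their type: 312 bp for H4, 381 bp for H2B, 390 or 393 bp for H2A and 411 bp for H3. All 19 lengths are multiples of 3, as a model of coding length without untranslated ends would be, and all are shorter than the gene in RefSeq. The 19 were grouped by shared length, so these are not 19 separate observations. Of the 15 other core lengths, 7 are multiples of 3. Of these 19 genes 18 fell in K1-NanER and none rose, with a median log2 fold change of -2.00 per the authors' deposited table. Of the 15 core genes with another length 6 fell and 2 rose in K1-NanER, with a median log2 fold change of -0.61 per the authors' deposited table. In K1-ER 14 of the 19 and 11 of the 15 fell per the authors' deposited table, where the medians were -1.65 and -1.18 (log2). The sum of the 19 genes was 2682 FPKM in K1-NanER, 3580 in K1-ER and 10289 in K1, and that of the 15 others 3005, 2195 and 5096 FPKM. This split was chosen after the values were seen.

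**Figure D3:**
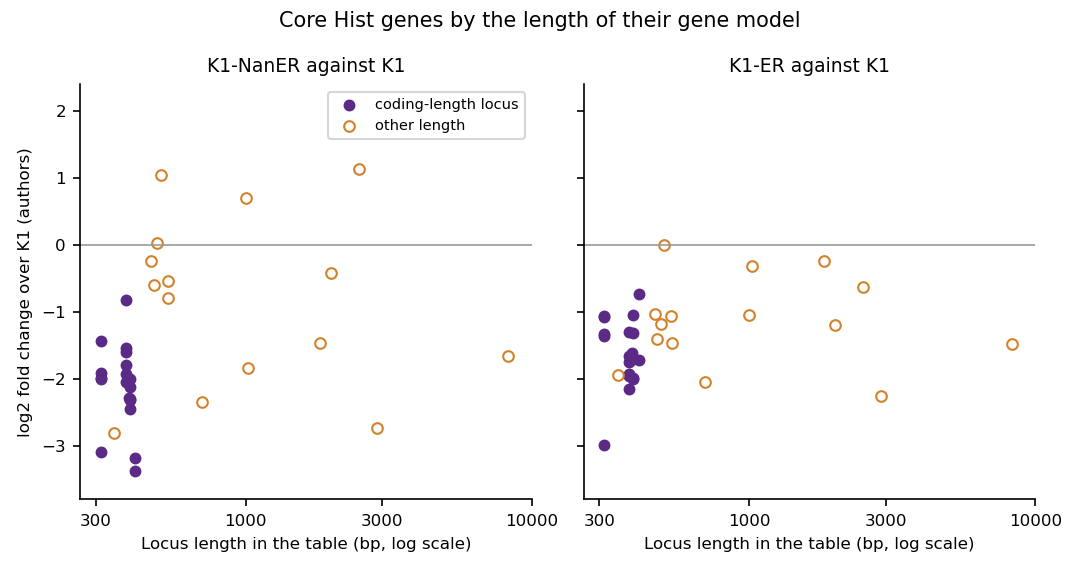
Log2 fold change over K1 (authors) against locus length in the table (bp, log axis) for the 34 core replication-dependent genes, K1-NanER left and K1-ER right, filled for the 19 genes of coding length and open for the 15 others. In K1-NanER the filled points all lie at or below -0.83, while the open points reach 1.14. In K1-ER the kinds overlap more.

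Other short genes of the table had a larger share of falls than longer ones in K1-NanER and a like share in K1-ER, with no test of either. Of 118 other genes with a locus of at most 3000 bp, 50 (42.4%) fell and 27 rose in K1-NanER, with a median log2 fold change of -0.47 per the authors' deposited table. In K1-ER 13 of the 118 (11.0%) fell and 55 rose, with a median of 0.97 per the authors' deposited table. The 1395 longer genes fell in 25.9% of cases in K1-NanER and 9.82% in K1-ER. Only 15 other genes had a locus under 1000 bp, of which 8 fell in K1-NanER and 3 in K1-ER. Replication-dependent histones fell in 71.1% of cases in K1-NanER and 76.3% in K1-ER. The part of gene length, or of fragment size in the libraries, in the histone values was not tested.

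**Figure D4:**
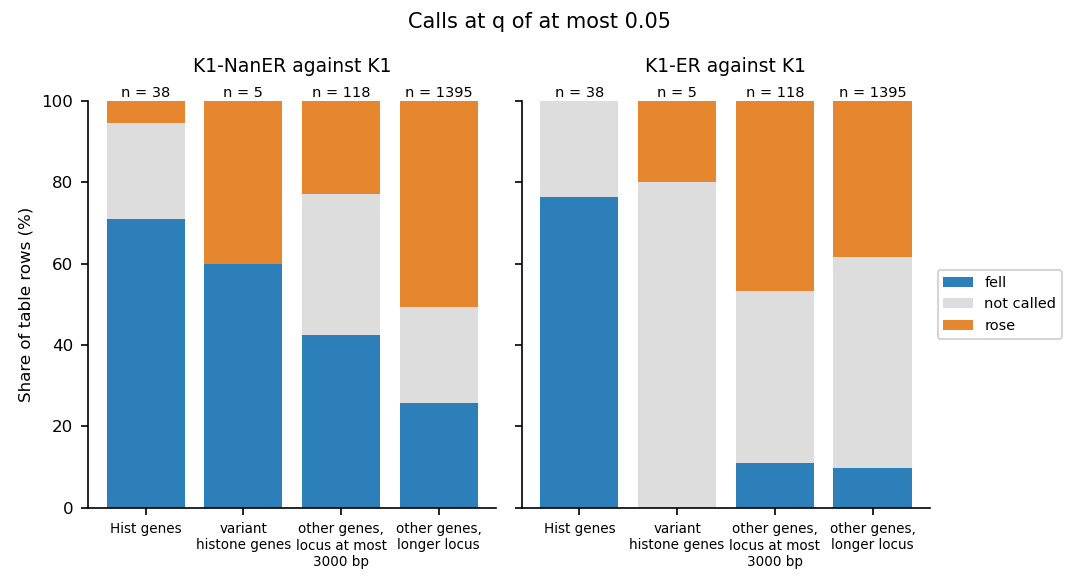
Share of table rows (%) that fell, were not called or rose at q of at most 0.05 in the authors' comparisons, K1-NanER left and K1-ER right, for 38 replication-dependent histone genes, 5 variant histone genes, 118 other genes with loci of at most 3000 bp and 1395 other genes. Fallen genes make up 42.4% of the short non-histone genes in K1-NanER and 11.0% in K1-ER.

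Variant histone genes did not move as a group. H3f3a, which encodes the replacement histone H3.3 (chromosome 1, 182732699 to 182743734), stood at 109 FPKM in K1-NanER, 86.4 in K1-ER and 25.0 in K1. It rose in each comparison, with log2 fold changes of 2.12 and 1.79 and q of 0.00213 per the authors' deposited table, and was the only histone gene that rose in K1-ER (37.9% of all rows did). H1f0, the linker histone that accumulates in differentiated cells (chromosome 15, 78858642 to 78860930), was at 21.997 FPKM in K1-NanER, 9.47 in K1-ER and 8.20 in K1. Its rise passed in K1-NanER (log2 fold change 1.42, q = 0.0168) and not in K1-ER (0.21, q = 0.870) per the authors' deposited table. H3f3a and H1f0 were 2 of the 4 histone genes that rose in K1-NanER, where 47.4% of all rows rose.

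The 3 H2A variants fell in K1-NanER and did not pass in K1-ER. H2afx, whose product is phosphorylated at DNA breaks and whose RNA can end in either a stem-loop or a poly(A) tail, was at 168 FPKM in K1-NanER, 341 in K1-ER and 573 in K1. H2afz, which encodes H2A.Z of promoter nucleosomes, was at 13.5 FPKM in K1-NanER, 28.2 in K1-ER and 46.8 in K1. H2afj (chromosome 6, 136756769 to 136758595) was at 40.5 FPKM in K1-NanER, 96.01 in K1-ER and 98.5 in K1. Log2 fold changes of H2afx, H2afz and H2afj were -1.77, -1.80 and -1.28 in K1-NanER, with q of 0.00213, 0.00669 and 0.00381 per the authors' deposited table. In K1-ER the q of H2afx, H2afz and H2afj was 0.261, 0.307 and 0.974 per the authors' deposited table.

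Few genes of the wider histone and S phase machinery had a row. Of 14 genes of histone RNA processing only Cstf2, a cleavage complex subunit, was listed, at 9.51 FPKM in K1-NanER, 13.9 in K1-ER and 22.008 in K1, and it fell in K1-NanER (q = 0.00931) per the authors' deposited table. Of 21 symbols of histone chaperones and their partners only Nap1l1, which carries H2A and H2B, was listed, at 48.1 FPKM in K1-NanER, 21.3 in K1-ER and 15.2 in K1, and it rose in K1-NanER (q = 0.00213) per the authors' deposited table. Neither passed in K1-ER.

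Of 42 genes of DNA replication and S phase control 8 were listed, of which 5 rose and 1 fell in K1-NanER and 3 rose and none fell in K1-ER, where 75.7% and 49.4% of all rows were called. Cdkn1a, an inhibitor of cyclin-dependent kinases, rose in each line, to 32.5 FPKM in K1-NanER and 51.3 in K1-ER, against 4.82 in K1. Ccne2, the S phase cyclin E2, rose in K1-NanER, at 60.2 FPKM in K1-NanER, 8.39 in K1-ER and 7.27 in K1. The ribonucleotide reductase gene Rrm2, at 133, 82.8 and 42.97 FPKM, the inhibitor Cdkn2c, at 42.0, 15.1 and 6.03 FPKM, and the retinoblastoma gene Rb1, at 12.1, 6.56 and 4.21 FPKM, also rose in K1-NanER. Pold1, of DNA polymerase delta, fell there, at 15.995 FPKM in K1-NanER, 31.8 in K1-ER and 39.3 in K1. E2f2 (26.04, 151 and 43.4 FPKM) and the inhibitor Cdkn2d (18.3, 43.8 and 6.37 FPKM) rose in K1-ER. The genes that rose thus include drivers and inhibitors of S phase entry, and the cell cycle state of the lines was not measured in these files.

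In fetal liver the only listed histone gene was H1fx, a variant linker histone gene (chromosome 6, 87930415 to 87931476). It was at 18.3 FPKM in Nan/+ livers and 8.07 FPKM in wild-type livers, a log2 fold change of 1.18 with q of 0.0190 per the authors' deposited table. All 793 listed liver genes were called (100%), and 75.4% of them rose, so a rise alone does not set H1fx apart. Among the listed liver genes the smallest absolute log2 fold change was 1 and the largest q was 0.0498. An unlisted liver gene is thus not shown to be unchanged or absent. Replication-dependent histones have no row, and poly(A) selection, per the labels, takes few of their tail-less transcripts. Why they have no row was not tested. A change in the number of cells of a type and a change in RNA per cell cannot be told apart in whole liver.

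Cell markers moved with the liver groups. Per the authors' deposited table, most (6 of 7) granulocyte and mast cell markers rose, with a summed level of 2330.05 FPKM in Nan/+ and 384 FPKM in wild type. Of 9 macrophage symbols 2 rose, C1qa and Cd68, summing to 79.9 FPKM in Nan/+ and 38.0 FPKM in wild type, and of 6 megakaryocyte markers Pf4 rose, at 622 FPKM in Nan/+ and 245 FPKM in wild type. All 6 skeletal muscle markers fell, summing to 1.75 FPKM in Nan/+ and 43.5 FPKM in wild type. Of the genes of DNA replication and S phase control, 2 had a liver row and both fell: E2f2 was at 16.1 FPKM in Nan/+ and 94.3 FPKM in wild type, and E2f4 at 77.6 FPKM in Nan/+ and 159 FPKM in wild type, with log2 fold changes of -2.55 and -1.03 per the authors' deposited table. None of 10 hepatocyte markers had a liver row. Xist, made by female cells, was at 0.04 FPKM in Nan/+ and 25.1 FPKM in wild type. The part of cell make-up or sex in the H1fx value was not tested. In the 4sU table of these lists only the hepatoblast marker Dlk1 (0.651, 0.797 and 3.01 FPKM in K1-NanER, K1-ER and K1) and Vwf (1.99, 2.88 and 5.13 FPKM) had rows, and both fell in K1-NanER.

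Both factors had their strongest histone peaks at a pair of H3 genes, Hist2h3c1 and Hist2h3c2. A Nan-KLF1 peak at Hist2h3c2 had 526-fold enrichment and a KLF1 peak there 405-fold. At Hist2h3c1 the Nan-KLF1 peak had 497-fold and the KLF1 peak 638-fold enrichment. Fold enrichment, a ratio of ChIP to input, was computed for each peak by the authors, and 1.02% or fewer of the Nan-KLF1 peaks and 2.27% or fewer of the KLF1 peaks were higher. The Nan-KLF1 peaks lay at chr3:96042792-96043622 and chr3:96050086-96050844 in mm9, within the wider KLF1 peaks at chr3:96042409-96044627 and chr3:96048835-96051264.

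All 4 peaks had CCCAGCCC as the authors' central motif, 1 of the CACCC-like forms in their lists. The RefSeq promoters of both genes (GRCm38.p6, from 250 bases before to 50 after the gene start, on the gene's strand) are shown because they hold that motif once each, in capitals, in reverse orientation as GGGCTGGG. Other forms in the authors' lists are left unmarked. Both promoters also hold CCCCGCCC in reverse orientation, the central motif of 13.7% of Nan-KLF1 and 16.4% of KLF1 peaks.
Hist2h3c1, chr3:96246435-96246734, strand +: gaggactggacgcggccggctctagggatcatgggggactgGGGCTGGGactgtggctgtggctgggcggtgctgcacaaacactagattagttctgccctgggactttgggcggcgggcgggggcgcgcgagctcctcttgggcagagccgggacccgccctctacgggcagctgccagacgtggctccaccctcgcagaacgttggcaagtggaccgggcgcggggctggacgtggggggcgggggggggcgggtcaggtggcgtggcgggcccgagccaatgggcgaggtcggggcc
Hist2h3c2, chr3:96239078-96239377, strand -: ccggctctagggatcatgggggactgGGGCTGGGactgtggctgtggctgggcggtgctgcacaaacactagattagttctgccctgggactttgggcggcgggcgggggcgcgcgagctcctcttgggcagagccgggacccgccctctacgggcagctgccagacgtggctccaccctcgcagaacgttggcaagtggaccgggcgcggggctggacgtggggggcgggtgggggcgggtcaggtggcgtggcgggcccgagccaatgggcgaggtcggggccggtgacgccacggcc
The motif lies 209 to 202 bases before the start of Hist2h3c1 and 224 to 217 bases before that of Hist2h3c2. In mm9 the Nan-KLF1 summits lie 222 and 237 bases and the KLF1 summits 214 and 221 bases before the 5' edge of the Hist2h3c1 and Hist2h3c2 loci; no position was converted between builds. With an offset of 15 bases the 2 promoters are identical at 284 of 285 aligned bases (99.6%), so reads from 1 copy could be placed at the other. CCCAGCCC, on either strand, is in 6.09% of 32851 RefSeq promoters of this length and in 3 of the 38 histone promoters found, the third being that of Hist1h2ac. CCACACCC and CCAAGCCC were in none of the 38. They were in 3.56% and 2.16% of all promoters, shares too low for 38 promoters to tell from none.

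New RNA of this H3 pair was lower in K1-NanER. Hist2h3c2 (chromosome 3, 96042031 to 96043050) was at 87.5 FPKM in K1-NanER, 250.1 in K1-ER and 312 in K1. Hist2h3c1 (chromosome 3, 96050608 to 96052432) was at 55.2 FPKM in K1-NanER, 129 in K1-ER and 153 in K1. Hist2h3c2 and Hist2h3c1 had log2 fold changes of -1.84 and -1.47 in K1-NanER (q of 0.00213 each), and of -0.32 and -0.24 in K1-ER (q of 0.708 and 0.799) per the authors' deposited table. The neighbour Hist2h3b, with no peak of either factor in its name, fell more steeply in K1-NanER, as given above. Hist2h3b is listed at coding length (411 bp), while Hist2h3c1 and Hist2h3c2 are listed at 1825 and 1020 bp. The part of this difference in the comparison was not tested.

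Hist1h4a and Hist1h4k, a pair of H4 genes, also carried peaks of both factors, with CCAAGCCC as central motif. At Hist1h4a the enrichment was 68.2-fold for Nan-KLF1 and 44.8-fold for KLF1, and at Hist1h4k 56.2-fold and 51.3-fold. The 4 summits lay inside the loci, 31 to 71 bases from the 5' edge. Hist1h4a was at 25.9 FPKM in K1-NanER, 105 in K1-ER and 222 in K1, with q of 0.0196 in K1-NanER and 0.184 in K1-ER per the authors' deposited table. Hist1h4k was at 66.9 FPKM in K1-NanER, 126 in K1-ER and 264 in K1, with q of 0.0116 in K1-NanER and 0.133 in K1-ER per the authors' deposited table.

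H3f3a had a distal peak of each factor beyond the 3' end of its locus, 274-fold for Nan-KLF1 with motif CCCTGCCC and 85.5-fold for KLF1 with motif CCCAGCCC. The summits lay 35366 and 35318 bases from the 5' edge of the locus. A second KLF1 peak, 66.8-fold with motif CCACGCCC, lay in an intron and overlapped no Nan-KLF1 peak. H3f3a rose in each line, and a peak of the factor active in each was named for it, for Nan-KLF1 only the distal one. Of all rows that rose, 232 of 737 in K1-NanER had a Nan-KLF1 peak and 419 of 589 in K1-ER a KLF1 peak. Whether these peaks act on H3f3a was not tested. Hist1h2ac, which rose in K1-NanER, had a KLF1 peak (55.5-fold) and no Nan-KLF1 peak.

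In all, 9 of 2758 Nan-KLF1 peaks (0.326%) and 17 of 5326 KLF1 peaks (0.319%) were named for a histone gene. Promoter peaks made up 6 of the 9 and 10 of the 17, against 24.4% and 29.4% of all peaks of the lists. A central motif was given for 7 of the 9 and 12 of the 17, against 68.3% and 78.9% of all peaks. Median enrichment was 109.7-fold for the 9 Nan-KLF1 peaks and 107-fold for their whole list, and 55.5-fold for the 17 KLF1 peaks and 75.6-fold for theirs. By an overlap of at least 1 bp 6 peaks were shared, which is 6 of 9 Nan-KLF1 and 6 of 17 KLF1 peaks, where 44.8% and 22.8% of the whole lists overlapped. The authors' own pairing holds 5 of them, the sixth being the peak at Hist1h4n, whose summits are 54 bp apart, beyond the 50 bp that is the largest distance in that pairing.

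Of the histone peaks, 3 of Nan-KLF1 and 11 of KLF1 overlapped none of the other factor. The Nan-KLF1 peaks without a KLF1 overlap were at H1foo, an oocyte linker histone gene (185-fold, intron, motif CCCAGCCC), Hist1h4f (55.7-fold) and Hist1h2ad (53.1-fold). Among the 11 KLF1 peaks the strongest was 105-fold, downstream of Hist1h2bb, with the motif CCACACCC. Hist1h2bj had a distal KLF1 peak of 54.8-fold with the same motif, and no histone Nan-KLF1 peak had CCACACCC. The other KLF1 peaks without an overlap ranged in enrichment from 39.2-fold at Hist1h1b to 69.1-fold at Hist1h4j. KLF1 promoter peaks at Hist1h4j, Hist1h2ap (65.8-fold) and Hist1h2ac (55.5-fold) were thus higher than the shared ones at Hist1h4k and Hist1h4a. KLF1 peaks at Hist1h4n and Hist1h2ap each came as 2 peaks, in neighbouring stretches of chromosome 13. Hist1h4n, Hist1h4j, Hist1h2ap, Hist1h2ah, Hist1h2ad and H1foo are in neither expression table used here.

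**Figure D5:**
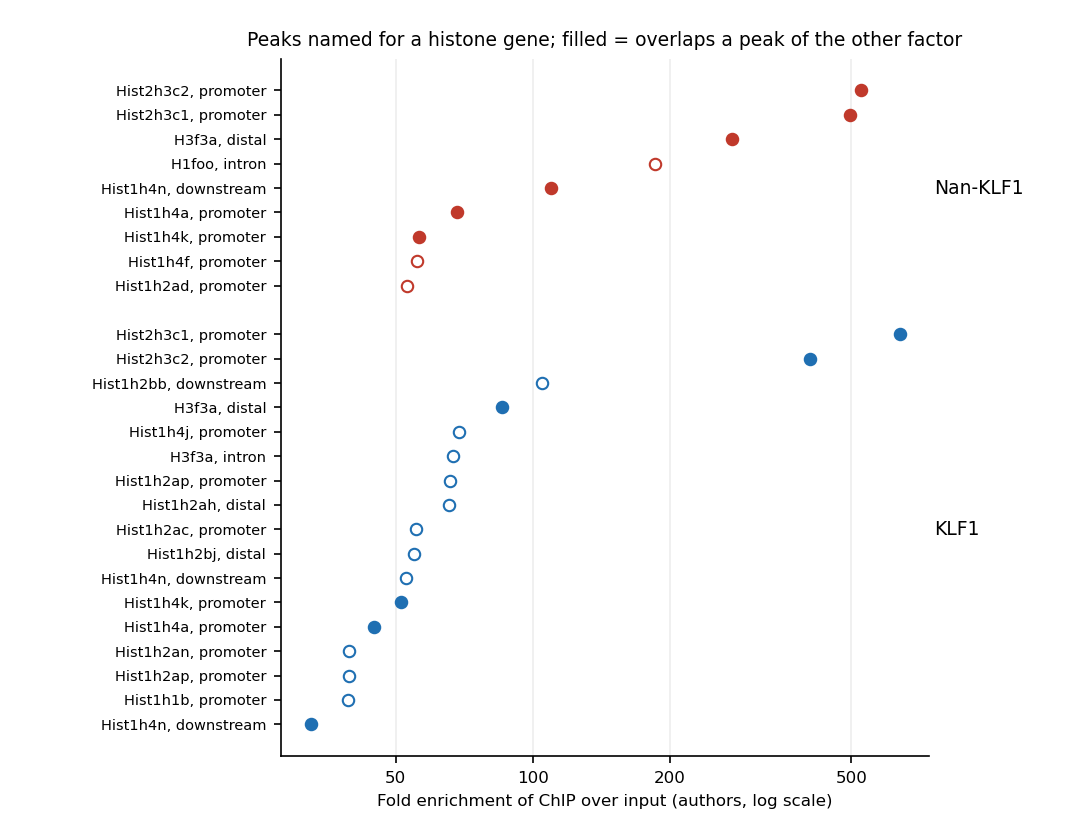
Fold enrichment of ChIP over input (authors, log axis) of every peak named for a histone gene, 9 of Nan-KLF1 above and 17 of KLF1 below, with the gene and the authors' location, filled where the peak overlaps one of the other factor. The Hist2h3c1 and Hist2h3c2 peaks stand far to the right in each list.

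Most genes that fell had no peak named for them, among histone genes and among all listed rows alike. Of the 30 histone genes that fell in K1-NanER 5 (16.7%) had a Nan-KLF1 peak, against 12.5% of all 441 rows that fell. These 5 were Hist2h3c1, Hist2h3c2, Hist1h4a, Hist1h4k and Hist1h4f. Of the 29 histone genes that fell in K1-ER 4 (13.8%) had a KLF1 peak, against 17.9% of all 179 rows that fell. These 4 were Hist1h1b, Hist1h2an, Hist1h2bb and Hist1h2bj. Whether called or not, 6 of the 43 histone genes had a Nan-KLF1 peak, against 413 of all 1556 rows (26.5%). A KLF1 peak was named for 10 of the 43, against 713 of all 1556 rows (45.8%). Peaks were assigned by the authors to the nearest gene, which in a cluster with short distances between genes may not be the only neighbour.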

How the data were processed

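Histone genes were studied in 4sU RNA, liver RNA and ChIP-seq peaks of mouse cells. The tools and build used were TopHat2 2.0.10, MACS 1.4.2 and mm9, per the submitters' processing notes. What computed the levels and tests is not given in the sources used here. FPKM values are those deposited by the authors, 1 per group. Log2 fold changes, p-values and q values are the authors' own, per the file headers. Each peak's ratio (fold enrichment) is deposited by the authors, as is its rank score, which is not reported. No counts or values of single samples were used, so depth and replicate error are unknown, no model was fitted, and no list was tested.

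Members, gene lists and the split by locus length were chosen with earlier results of these data known; the text names every row under the rule on symbols. A gene counts as called at q of at most 0.05. Listed gene starts were raised by 1, since end minus start gives whole coding lengths; peak positions are as listed. Symbols were matched to RefSeq (GRCm38.p6) for names, strand and promoters only, for 43 of 43 genes, of which 38 had a promoter. Counting and overlap code (Python 3.11.15, pandas 2.3.3) was tested on simulated data. Alternatives were a q of 0.01, a minimum of 1 FPKM, a pseudocount of 1 FPKM, leaving out H4, centring, 50-fold enrichment and a larger overlap.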

Additional observations from a re-analysis of the deposited data

How the results depend on the processing

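The direction of the median over all histone genes and the rise of H3f3a in K1-ER held under the settings run for them. The H2A median in K1-NanER did not: it was -2.21 over 10 genes and 0.32 without those of coding length, and the cause was not tested. The other medians by type, rerun after seeing the data with the pseudocount, centring and, for core types, without genes of coding length, stayed below 0. At a q of at most 0.01, falls numbered 24 in K1-NanER (30 at 0.05) and 18 in K1-ER (29 at 0.05), rises in K1-NanER numbered 1 (4 at 0.05), and in liver 0 histone rows passed (H1fx has p of 0.0007). Without the 19 core genes of coding length, a setting added after seeing the data, 12 fell in K1-NanER and 15 in K1-ER, with median log2 fold changes of -0.97 and -1.06. The median over the 43 genes was -1.77 in K1-NanER and -1.30 in K1-ER as deposited. It was -1.72 and -1.29 with a pseudocount of 1 FPKM, and -2.81 and -2.02 when centred on all rows. The medians of all listed rows lie above 0, so centring could only lower the histone medians, also by type, and cannot test their direction. Over replication-dependent genes without H4 the median was -1.67 in K1-NanER. The liver value of 1.18 became 1.09 with the pseudocount. A minimum of 1 FPKM changed no count. At 50-fold enrichment or more 9 Nan-KLF1 and 12 KLF1 peaks were left, and the larger overlap kept 6 shared peaks. The planned limit of 10 kb by a listed distance could not be run, as the lists give none. A limit computed after seeing the data from summit to 5' edge, for peaks whose gene has a 4sU locus, kept 5 of 6 Nan-KLF1 and 10 of 11 KLF1 peaks, losing the distal H3f3a peaks. No paired analysis was possible because the tables give 1 value per group, and for the same reason no replicate could be left out. Depth is unknown.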
